A study of Mus musculus with 310 samples.

Results

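Mitochondrial DNA encodes 13 proteins of the respiratory chain and of ATP synthase, and 9 of these genes are described here, chosen by name: mt-Nd1, mt-Nd2, mt-Nd4 and mt-Nd5 of complex I, mt-Cytb of complex III, mt-Co1, mt-Co2 and mt-Co3 of complex IV, and mt-Atp6 of complex V. All 9 were found among the 14068 genes of the count table. The table holds the other 4 as well, mt-Nd3, mt-Nd4l, mt-Nd6 and mt-Atp8, and "mt- reads" means the reads of all 13. Each gene was followed as its percentage of the mt- reads of a cell and as its percentage of all reads of the cell.

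The cells came from the tail epidermis of mice of a CBA C57BL/6 mixed strain that carried the allele Lrig1-EGFP-ires-CreERT2 and the reporter Rosa26-fl/STOP/fl-tdTomato. Hydroxytamoxifen had been applied to their tail skin in a single dose before wounding, so that Lrig1-expressing cells of the upper hair follicle and their progeny carried tdTomato. Single tdTomato+ cells were sorted into wells and sequenced along the length of their polyadenylated RNA with a modified Smart-seq2 protocol. The study set cells of repaired skin against cells of age-control skin. The group 38w holds 145 cells by its labels, 70 of RepI and 75 of RepL, and the group 38wUW 165 cells, 82 of RepM and 83 of RepN, all with a time tag of 38 weeks. They do not spell out UW or say which group had been wounded, so differences are given as 38w minus 38wUW and whether they run towards repaired skin is open. Genotype, reporter, hydroxytamoxifen and sort were shared by both groups, the Cre was driven by the Lrig1 locus, and the labels do not say whether a replicate was 1 mouse or a pool.

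The respiratory chain passes electrons from NADH and succinate to oxygen and stores the energy as a proton gradient across the inner mitochondrial membrane, which ATP synthase uses. Most of its subunits are encoded in the nucleus, while a few core membrane subunits of complexes I, III, IV and V come from the mitochondrial genome. Mitochondrial genes are transcribed as long polycistronic RNAs, cut at the transfer RNAs that separate most of them, and polyadenylated. For several of them the added tail completes the stop codon, and the tail is what an oligo-dT primer can catch.

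The annotated 3′ ends of 5 of the genes are shown because priming starts at a tail downstream of them. Where the tail of each RNA begins was not determined here. They are the last 30 bases of the GENCODE M21 transcripts (build GRCm38, mitochondrial chromosome M, plus strand), with the stop codon, or the 1 base of it that the genome encodes, in capitals.
mt-Co1 (chrM:6843-6872): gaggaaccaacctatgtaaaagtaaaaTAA
mt-Atp6 (chrM:8578-8607): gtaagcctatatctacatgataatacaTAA
mt-Co3 (chrM:9361-9390): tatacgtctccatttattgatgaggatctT
mt-Nd4 (chrM:11515-11544): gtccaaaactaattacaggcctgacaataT
mt-Cytb (chrM:15259-15288): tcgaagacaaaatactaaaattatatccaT
Of the 9 genes 6 end in a full stop codon and 3, mt-Co3, mt-Nd4 and mt-Cytb, in a single T. All 9 are protein-coding genes on the plus strand, 681 to 1824 bases long, and each stretch shown is exonic.

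mt-Atp6 overlaps mt-Atp8 and adjoins mt-Co3, which bears on how reads were shared out. In the overlap the start codon of mt-Atp6 and the stop codon of mt-Atp8 are in capitals, and in the joint the 1 base that belongs to both mt-Atp6 and mt-Co3.
mt-Atp8 and mt-Atp6 (chrM:7927-7969): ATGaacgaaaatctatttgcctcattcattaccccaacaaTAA
mt-Atp6 and mt-Co3 (chrM:8593-8622): catgataatacataAtgacccaccaaactc
The estimated counts of mt-Atp6 and mt-Atp8 were not whole in 123 cells each, while their sum was within 0.05 of a whole number in all cells. mt-Co3 was not whole in 1 cell, and the other 7 of the 9 genes in none. Several of the genes have near-identical nuclear copies among the M21 transcripts. Of all windows of 75 bases, the read length, copies outside the mitochondrial chromosome share 99.9% of mt-Co3, 99.5% of mt-Co2, 99.5% of mt-Atp6, 61.5% of mt-Nd4 and 39.8% of mt-Co1. For mt-Nd2 and mt-Nd5 they share 5.71% and 1.66%, and for mt-Nd1 and mt-Cytb 0. None of these copies is among the genes of the table, and reads that came from one cannot be told apart from reads of the mitochondrial gene, so levels of mt-Co3, mt-Co2 and mt-Atp6 are uncertain to that extent.

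The cells held 11711 to 721564 reads (median 61294), 1996 to 5840 genes and 211 to 209675 mt- reads (median 5662). RepI lay on plates C114 (53 cells) and C118 (17 cells), RepL on C119, RepM on C128 and RepN on C129, so replicate and plate cannot be told apart for the last 3. On C114, 11 wells are named by 2 cells each. The log2 profiles of those pairs correlated across genes at a median r of 0.498, against 0.400 for the other 1367 pairs of that plate. The cells are labelled keratinocytes, and 10 of 10 keratinocyte markers were in the table, with 1.73% to 4.40% of a plate's reads. Of the lists for other cells, 2 of 8 immune, 5 of 6 fibroblast, 3 of 5 melanocyte, 1 of 5 muscle and 0 of 4 erythroid genes were in the table, with at most 0.0075% of reads. Of 4 endothelial genes Pecam1 had 139337 reads, found in all 310 cells, whereas Kdr had 8, Vwf 35 and Cdh5 was not among the genes. Sebocyte markers, 4 of 5 in the table, took 0.0149% to 0.0700% in 38w and 0.0298% to 0.0761% in 38wUW.

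mt- reads took from 0.478% to 46.2% of a cell's reads, and the plates of 1 replicate differed more than the groups. On C114, which had both of these cells, the median was 2.77%. On C118, the same replicate, the median was 33.8%. The means over cells were 11.2% (RepI) and 11.2% (RepL) in 38w and 16.6% (RepM) and 20.97% (RepN) in 38wUW. Both 38w replicates were thus lower, at 11.2% ± 0.0357 (SD, n = 2) against 18.8% ± 3.10 (SD, n = 2), a difference of -7.58 percentage points (two-sided exact permutation test, p = 0.33, the smallest that 6 splits of 4 replicates allow). The close match of RepI and RepL is a mean of 5.01% on C114 and 30.6% on C118, and with RepI taken from C118 alone the difference was +2.11 points. Fewer mitochondrial transcripts and more RNA of other kinds cannot be told apart in such a share. Ribosomal protein genes took 25.6% of the reads outside mt- genes in RepI and 4.77%, 6.65% and 6.45% in RepL, RepM and RepN, so that the groups overlapped, and with their reads left out of the denominator the difference was -7.46 points. The 5 markers of basal keratinocytes took 2.66% of all reads on C114 and 0.209% to 0.676% on the other plates. Those of suprabasal keratinocytes were also highest on C114, with 0.328% to 1.08% on the other plates. The 5 markers of infundibulum and duct cells took 6.39% on C114, 0.181% on C118, 0.426% on C119, 2.63% on C128 and 0.827% on C129. In the median cell, however, their summed level was lower on C114 than on C128 and C129. The 5 bulge markers took 0.0677% to 0.157% on the 38w plates and 0.165% to 0.209% on the 38wUW plates, without overlap. The part of these markers in the result was not tested.

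**Figure D1:**
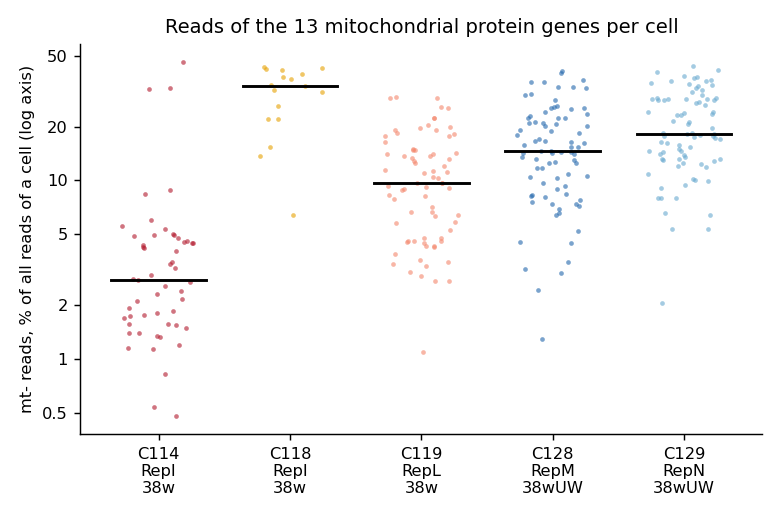
Percentage of a cell's reads that came from the 13 mt- genes (log axis), by plate with its replicate and group. Each point is a cell and each bar the plate median. C114 has the lowest median (2.77%) and C118, of the same replicate, the highest (33.8%).

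Complex IV, cytochrome c oxidase, hands electrons to oxygen, and its 3 mitochondrial subunits took most of the reads. mt-Co3, a core subunit without a metal centre, took 28.5% of mt- reads (RepI) and 34.5% (RepL) in 38w and 47.9% (RepM) and 54.2% (RepN) in 38wUW. Both 38w replicates lay below both 38wUW replicates, at 31.5% ± 4.25 against 51.0% ± 4.43 (SD, n = 2 each), a difference of -19.5 points (exact permutation test, p = 0.33). The plates did not follow the groups. The medians were 17.9% on C114, 60.2% on C118, 33.9% on C119, 48.4% on C128 and 56.2% on C129, so the lowest and the highest plate were both 38w and both RepI. With RepI from C118 alone the difference was -4.14 points and the groups overlapped. Within the batch tag of the labels, C114 at a mean of 18.7% lay below C128 at 47.9% in one batch, and C118 at 59.2% and C119 at 34.5% lay on both sides of C129 at 54.2% in the other. With the alternative batch tag, which exchanges C128 and C129, C114 lay below C129 and C128 lay between C118 and C119. As a share of all reads, mt-Co3 took 5.59%, 4.18%, 8.67% and 12.1% in RepI, RepL, RepM and RepN.

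mt-Co1, the catalytic subunit that holds the site of oxygen reduction, took 27.97% of mt- reads in RepI and 18.9%, 19.8% and 19.2% in RepL, RepM and RepN. The groups overlapped, and the 4 plates other than C114 had nearly the same median (17.9% on C118, 18.1% on C119, 18.2% on C128 and 17.9% on C129), against 29.9% on C114. mt-Co1 was the largest of the 9 genes in 43 of the 53 cells of C114, and mt-Co3 in 4 of them. mt-Co3 was the largest in 17 of 17 cells of C118, 61 of 75 of C119, 81 of 82 of C128 and 81 of 83 of C129, which makes 82 of 145 cells of 38w and 162 of 165 of 38wUW. mt-Co2, which accepts electrons from cytochrome c, took 9.20% of mt- reads (RepI) and 6.63% (RepL) in 38w and 5.42% (RepM) and 3.87% (RepN) in 38wUW. Both 38w replicates were higher, by 3.27 points, and by 0.718 points with overlap when RepI came from C118 alone. Together the 3 genes took 67.6%, 62.9%, 75.3% and 79.1% of the reads of the 9 genes in RepI, RepL, RepM and RepN. The difference was -12.0 points, and -4.36 points with overlap when RepI came from C118 alone.

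mt-Atp6 encodes subunit a of ATP synthase, which carries part of the proton path. It took 15.7% of mt- reads (RepI) and 19.4% (RepL) in 38w and 12.3% (RepM) and 9.31% (RepN) in 38wUW, higher in both 38w replicates by 6.73 points (17.5% ± 2.61 against 10.8% ± 2.09, SD, n = 2 each). Plate medians were 17.8% on C114, 7.47% on C118, 19.3% on C119, 12.1% on C128 and 8.72% on C129, again with C118 at one end. With RepI from C118 alone the difference was 2.86 points and the groups overlapped. mt-Atp6 and mt-Co3 adjoin in the genome, yet their ratio varied widely. The log2 ratio of mt-Co3 to mt-Atp6 reads had medians of 0.04 on C114, 3.13 on C118, 0.87 on C119, 2.01 on C128 and 2.75 on C129. Its replicate means were 0.70, 0.85, 2.02 and 2.61 in RepI, RepL, RepM and RepN, a difference of -1.54 on the log2 scale. That difference was -0.428 with overlap when RepI came from C118 alone.

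mt-Cytb, the only mitochondrially encoded subunit of complex III and the one that holds its quinone sites, took 3.99% of mt- reads (RepI) and 2.10% (RepL) in 38w and 1.56% (RepM) and 1.94% (RepN) in 38wUW. The groups did not overlap, with a difference of 1.297 points, but RepL and RepN were close to each other. C114 stood apart, with a median of 4.54% against 1.77% on C118, 1.91% on C119, 1.41% on C128 and 1.57% on C129. With RepI from C118 alone the difference was 0.265 points.

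The complex I genes encode subunits of its membrane arm, which pumps protons. mt-Nd1, which forms the junction with the peripheral arm, had the most reads of the 4 and took 7.45% of mt- reads (RepI) and 6.97% (RepL) in 38w and 4.99% (RepM) and 3.89% (RepN) in 38wUW. It was higher in both 38w replicates by 2.77 points, 7.21% ± 0.342 against 4.44% ± 0.778 (SD, n = 2 each), and by 0.596 points with overlap when RepI came from C118 alone. The antiporter-like subunits mt-Nd2, mt-Nd4 and mt-Nd5 overlapped between groups. mt-Nd4 took 2.27%, 3.21%, 2.23% and 2.46% in RepI, RepL, RepM and RepN. mt-Nd5, the longest of the genes, took 1.52%, 2.25%, 1.79% and 1.74%. mt-Nd2 took 0.531%, 1.30%, 1.05% and 0.959%. It had no read in 2 cells of C114, while each of the other genes of the 9 had reads in every cell. Complex I genes together took 12.1% and 14.4% of the reads of the 9 genes in 38w and 10.4% and 9.32% in 38wUW, a difference of 3.43 points (exact permutation test, p = 0.33) that was 0.931 points with RepI from C118 alone.

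**Figure D2:**
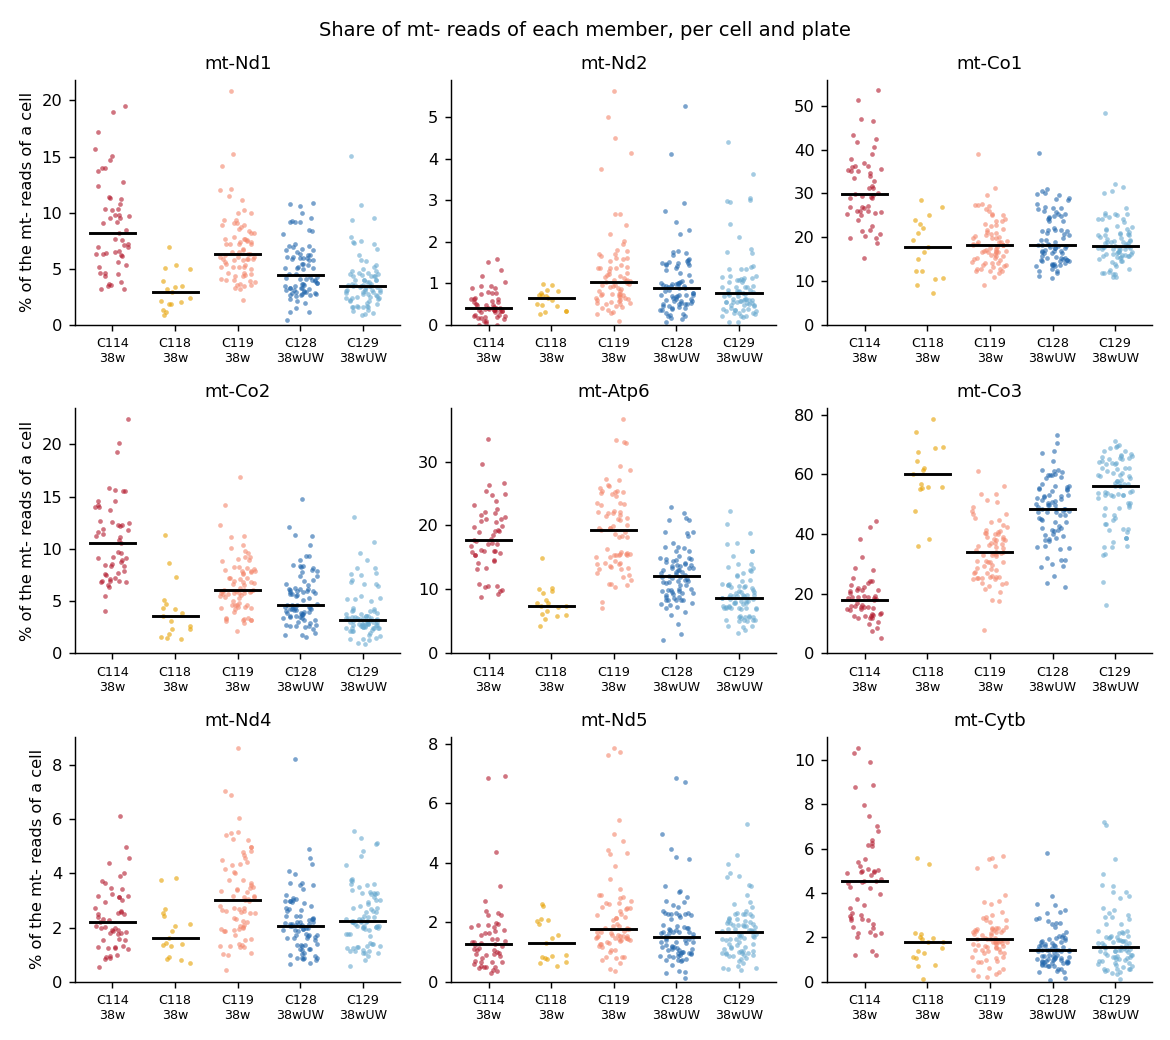
Percentage of a cell's mt- reads taken by each of the 9 genes, by plate and group. Each panel has its own axis from 0, each point is a cell and each bar the plate median. mt-Co3 is lowest on C114 (median 17.9%) and highest on C118 (60.2%), while mt-Co1 has nearly the same median on the other 4 plates.

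Levels can be compared between genes only per length, so reads were divided by gene length and given as a percentage of that sum over the 13 mt- genes. On this length-scaled level mt-Co3 came first on 4 plates, with medians of 65.2% on C118, 33.8% on C119, 51.3% on C128 and 60.2% on C129, and its interquartile range lay above that of every other of the 9 genes there. On C114 mt-Atp6 (22.4%), mt-Co3 (19.1%), mt-Co1 (16.9%) and mt-Co2 (12.9%) followed each other, and the interquartile ranges of neighbours overlapped. mt-Atp6 and mt-Co1 had overlapping ranges on C118 (8.83% and 9.33%), C128 (14.5% and 9.49%) and C129 (10.7% and 9.55%), but not on C119 (22.3% and 9.13%). mt-Co2 and then mt-Nd1 came next on every plate, with medians of 3.85% to 12.9% and 2.50% to 7.63%. mt-Nd5 and mt-Nd2 were the 2 lowest of the 9 genes on every plate, at 0.561% to 0.745% and 0.357% to 0.738%, with overlapping ranges. Read in the order of the genome, the level was thus high from mt-Co1 to mt-Co3 and lower at mt-Nd2 and from mt-Nd4 onwards.

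**Figure D3:**
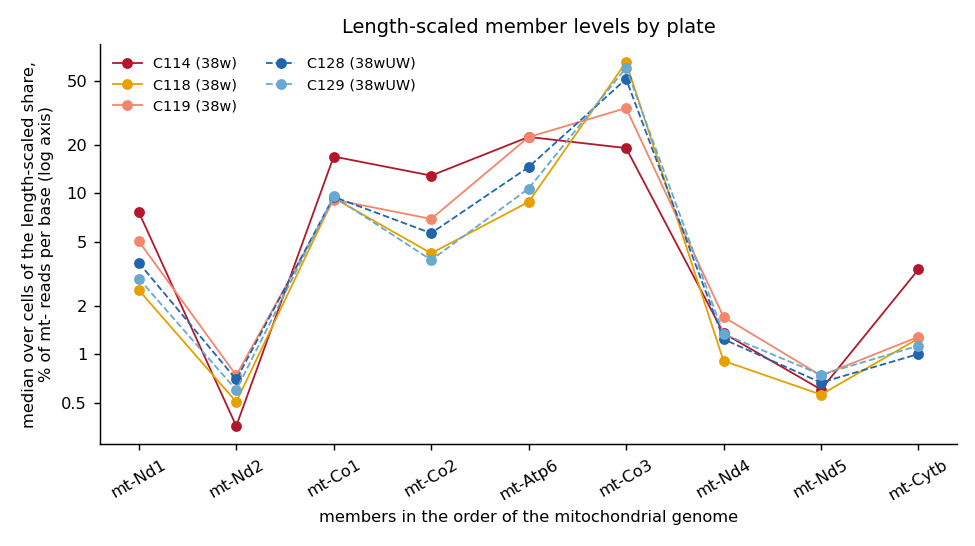
Median over cells of the length-scaled level of each gene, as a percentage of reads per base summed over the 13 mt- genes (log axis), in genome order. Lines are plates, solid for 38w and dashed for 38wUW. mt-Co3 is highest on 4 of the 5 plates, and on C114 mt-Atp6 lies above it (22.4% against 19.1%).

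The number of genes whose replicate shares did not overlap between the groups was 5 of 9: mt-Co3 lower in 38w, and mt-Atp6, mt-Co2, mt-Nd1 and mt-Cytb higher. Among the 78 nuclear subunit genes, taken as shares of their own sum, 43.6% did not overlap, and 36.6% of the cytosolic ribosomal protein genes did not. Shares of a whole are tied to each other. mt-Co3 was also left out of the sum, an alternative added after the data were seen. Of the other 8 genes 1 still did not overlap, mt-Nd1 with 10.04% and 10.5% in 38w and 9.44% and 8.25% in 38wUW. mt-Atp6 was then at 21.7%, 29.2%, 23.4% and 20.1%, and mt-Co2 at 12.5%, 10.1%, 10.2% and 8.22%, in RepI, RepL, RepM and RepN. Without mt-Co3, mt-Nd1 also overlapped when RepI came from C118 alone (difference 0.231 points). It overlapped as well with medians over cells and with the plate as unit. With mt-Co3 kept in the sum, the count was 1 (mt-Co1) with RepI from C118 alone. There 16.7% of the nuclear subunit genes and 9.76% of the ribosomal protein genes did not overlap. With RepI or RepL left out, the 38w group holds 1 replicate and overlap is rarer for any gene. The count was then 9 without RepI, beside 62.8% and 63.4% of those genes, and 8 without RepL, beside 92.3% and 72%. As shares of all reads, mt-Co3, mt-Co1, mt-Co2, mt-Nd2 and mt-Nd5 were lower in both 38w replicates, where 36.4% of all genes were lower in both and 44.1% did not overlap in either direction, and the other 4 genes overlapped.

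**Figure D4:**
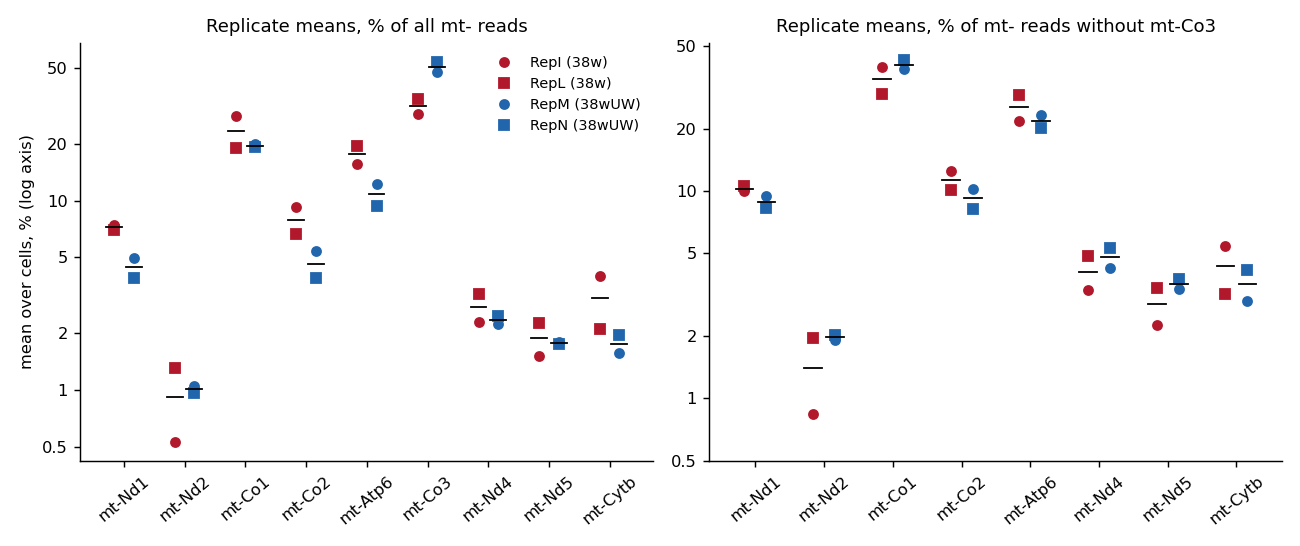
Replicate means of the share of each gene (log axes), out of all mt- reads on the left and out of mt- reads without mt-Co3 on the right. Points are replicates (red 38w, blue 38wUW) and bars the group means of 2 replicates. The groups do not overlap for 5 of 9 genes on the left and for 1 of 8, mt-Nd1, on the right.

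Counts summed per replicate were then compared across all genes. None of the 9 genes was called by edgeR (quasi-likelihood F-test, threshold of 0.05 on the Benjamini-Hochberg adjusted p), nor in any of the 19 alternatives. Of all 11760 genes tested, 0 were called (0%), 949 at an unadjusted p under 0.05 (8.07%) and 83 by DESeq2 (0.706%). mt-Co3 had 59162 and 71640 CPM (counts scaled to a common library size with TMM factors) in RepI and RepL and 117275 and 128149 in RepM and RepN. Its log2 fold change was -0.91 (SE 1.85, edgeR adjusted p = 0.906), while taking RepI from C118 alone gave +0.22. mt-Co1 had 27124, 33346, 36847 and 40685 CPM in RepI, RepL, RepM and RepN (log2 fold change -0.36, SE 1.58). These 2 genes were lower in both 38w replicates, where 20.8% of all genes were, and none of the 9 was higher in both, where 17.7% of all genes were. The other 7 log2 fold changes lay between -0.07 (mt-Nd5) and 0.39 (mt-Co2). Of the 9 genes 5 were above 0, and their median was 0.12, the same as that of all tested genes.

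Cells of 1 plate differed in mt- composition more than counting allows. Over the 45 pairs of gene and plate, the SD among cells was 1.95 to 27.8 times the SD that binomial counting of the mt- reads would give (median 6.73 times). This covers counting error only, since reads without molecular identifiers are not independent molecules. Relative to its mean, mt-Co3 on C118 varied least (coefficient of variation 0.192) and mt-Nd2 on C129 most (0.849). On C114, 3 cells, in wells F5, D11 and E5, stood apart with mt- shares of 46.2%, 32.8% and 32.4% of reads. Their mt-Co3 shares of mt- reads were 44.4%, 42.2% and 38.4%, and ribosomal protein genes took 12.8%, 11.2% and 23.7% of all their reads. The other 50 cells of that plate had 0.478% to 8.84% mt- reads, 4.995% to 32.2% mt-Co3 (median 16.5%) and a median of 32.9% ribosomal protein reads. A high mt- share lowers any other share of all reads by itself. The ribosomal protein values of the 3 cells and of the other 50 can therefore not be compared directly. The 3 cells were picked by an mt- share over 20% of reads, so their place above the rest in that measure was fixed. Their mt-Co3 shares also lay above those of the other 50. Without the 3 cells, an alternative added after the data were seen, the group difference in mt-Co3 was -19.8 points.

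Within plates, the mt-Co3 share went with the amount of the other mt- genes on some plates. Spearman's rho between the mt-Co3 share of mt- reads and the other 12 genes as a percentage of reads without mt-Co3 was 0.31 over 75 cells of C119, 0.54 over 82 cells of C128 and 0.42 over 83 cells of C129, but -0.09 over 53 cells of C114 and -0.03 over 17 cells of C118. These are descriptions, since cells of a plate share their library preparation and both measures their mt- reads. The mt- share of reads also went with the number of reads of a cell (rho 0.13, 0.52, 0.58 and 0.45 on C114, C119, C128 and C129). That number includes the mt- reads. Against the reads outside mt- genes rho was 0.06, 0.45, 0.47 and 0.36 on C114, C119, C128 and C129. Levels of the 9 genes were also taken relative to the reads outside mt- genes. On those 4 plates their 36 pairs had mean within-plate rho values of 0.485 (mt-Nd2 and mt-Cytb) to 0.887 (mt-Co1 and mt-Co3), with a median of 0.669. These levels share a denominator and the mt- amount of the cell, so values above 0 were likely for any pair. With each log level set against the mean log level of the mitochondrial genes in the cell, the mean rho was -0.356 (mt-Nd1 and mt-Co1) to 0.471 (mt-Co1 and mt-Co3). Such centred levels are tied to each other.

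**Figure D5:**
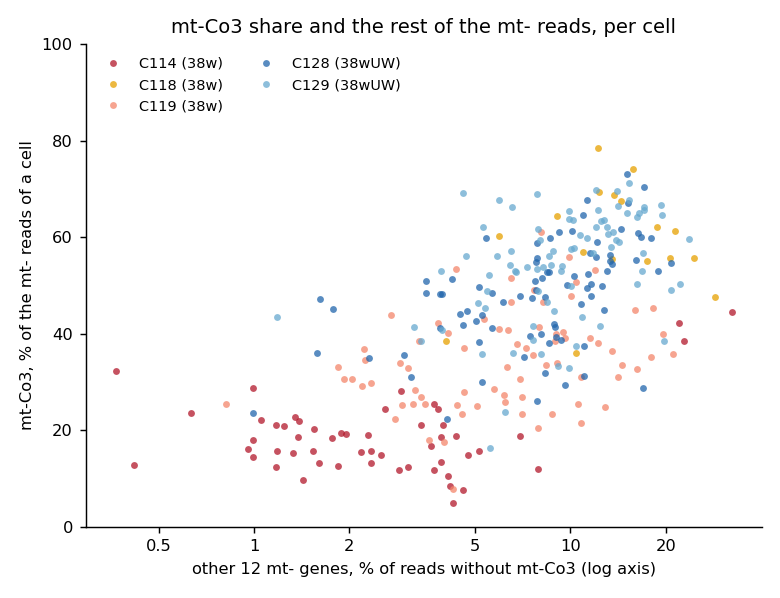
Share of mt-Co3 in a cell's mt- reads against the other 12 mt- genes as a percentage of reads without mt-Co3 (log axis). Points are cells coloured by plate. Most C114 cells lie at low values of both, 3 of them at 38.4% to 44.4% mt-Co3 with high values of the rest, and rho within C128 is 0.54.

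The complexes also need subunits encoded in the nucleus, and 78 genes for them were tested. They took 2.05% of reads outside mt- genes (RepI) and 0.813% (RepL) in 38w and 1.06% (RepM) and 1.32% (RepN) in 38wUW, so the groups overlapped. The 9 mitochondrial genes had 9.52 and 18.0 reads per read of a nuclear subunit in 38w and 20.7 and 23.2 in 38wUW, lower in both 38w replicates. By plate the median of this ratio was 1.28 on C114, 24.5 on C118, 14.3 on C119, 17.7 on C128 and 20.8 on C129. From cell to cell the mt- share and the share of nuclear subunits had rho values of 0.36, 0.51, 0.40 and 0.41 on C114, C119, C128 and C129 and of -0.08 on C118.

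None of these 78 genes was called by edgeR, and none by DESeq2. Of 37 complex I genes 31 had a log2 fold change above 0 (median 1.64), of 4 complex II genes 3 (0.56), of 9 complex III genes 8 (1.84), of 12 complex IV genes 10 (0.98) and of 16 complex V genes 14 (0.84), beside 53.4% and a median of 0.12 for all tested genes. With RepI from C118 alone the medians were 0.21, 0.44, 0.34, 0.31 and 0.11, beside 0.03 for all tested genes. Without RepI they were 0.08, 0.16, -0.04, 0.23 and 0.04, beside -0.15 for all tested genes. In complex I, Ndufb6 (log2 fold change -0.61), Ndufv2 (0.22), which carries an iron-sulfur cluster, and Ndufa1 (-0.19) were near or below 0. In complex II, the flavoprotein Sdha was at 0.02, the iron-sulfur subunit Sdhb at 1.10 and the membrane anchor Sdhd at -0.24.

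In complex III, Uqcrb was at -0.21, while the core protein gene Uqcrc1 was at 2.80 (SE 1.04) with 615 CPM (RepI) and 113 (RepL) in 38w and 76.8 (RepM) and 27.5 (RepN) in 38wUW, and the hinge protein gene Uqcrh at 2.50 (SE 1.05). In complex IV, Cox4i1, a regulatory subunit, was at 3.07 (SE 1.16), with 1635 CPM (RepI) and 176 (RepL) in 38w and 144 (RepM) and 71.4 (RepN) in 38wUW, whereas Ndufa4 was at -0.55 and Cox7b at -0.15. For these the high value was that of RepI, which holds C114. Uqcrc1, Uqcrh and Cox4i1 had an edgeR adjusted p of 0.617 each and were called only when RepL was left out, at log2 fold changes of 3.64, 3.44 and 4.003. RepI, the high sample, is then the only 38w replicate and is assumed to vary like those of 38wUW, which alone give the spread. In complex V, Atp5g3 of the membrane ring was at 0.19, Atp5l at -0.14 and Atp5c1 of the central stalk at 0.61.

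Of the genes that serve the mitochondrial genome and its products, 31 for maintenance, transcription and RNA processing had a median log2 fold change of -0.05, with 14 above 0, and 78 for the mitochondrial ribosome had a median of 1.13, with 67 above 0. With RepI from C118 alone these medians were 0.02 and 0.20, beside 0.03 for all tested genes. Biogenesis regulators (6 tested, median 0.32), markers of mitochondrial content (12 tested, 0.26) and stress response genes (6 tested, 1.02) had 4, 8 and 5 genes above 0, and the 81 cytosolic ribosomal protein genes had 79 (median 2.31, or 0.23 with RepI from C118 alone). edgeR called none of the genes in any of these lists. None of the 2 mitochondrial ribosomal RNAs and the 11 nuclear copies listed for this purpose was among the genes of the count table, so they could not be analysed.

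Outside the mt- genes, the gene whose level followed the mt- share most closely from cell to cell was Gm20594, with a mean Spearman's rho of 0.82 over C114, C119, C128 and C129, among 2062 genes found in at least 50% of cells. Its plate medians were 690 CPM, counted outside mt- genes, on C114, 18398 on C118, 4975 on C119, 9016 on C128 and 11207 on C129. Its transcript of 449 bases shares 42 windows of 31 bases with mt-Rnr2, the large mitochondrial ribosomal RNA. Next came Rpl39 (0.69), Tpt1 (0.62), Rpl5 (0.61) and Rpl30 (0.57), of which 3 encode ribosomal proteins, although the summed ribosomal protein level had rho values of only -0.11 to 0.09 with the mt- share. At the other end were Actb, which encodes cytoplasmic actin (-0.43), Trim29 (-0.40), Spint2 (-0.36), the keratinocyte galectin gene Lgals7 (-0.34) and the myosin light chain gene Myl6 (-0.34). In all, 92 genes had a mean rho of at least 0.3 and 16 of at most -0.3. Marker levels of infundibulum and duct cells had rho values with the mt- share of -0.23, 0.02, -0.46 and -0.37 on C114, C119, C128 and C129, and those of basal keratinocytes 0.33, 0.23, 0.35 and 0.17. Over the 17 cells of C118 the values were -0.17 and -0.28.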

How the data were processed

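The authors mapped single-end reads of 75 bases with Salmon 0.13.1 to the Ensembl 101 mouse transcriptome (build GRCm38), and deposited 1 table of estimated counts, unscaled, with a row for each gene and a column for each cell. In it 3.60% of values are not whole. The study's methods drop cells under 1000 genes or over 50% mitochondrial reads. From this table, shares were computed per cell and averaged over the cells of a replicate, the unit of every comparison (n = 2 against 2), and tested by exact permutation of the replicates (two-sided). Counts summed per replicate were rounded and tested with edgeR 4.0.16 (TMM, filterByExpr, quasi-likelihood, Benjamini-Hochberg over all genes, threshold 0.05) and with DESeq2 1.42.0 as an alternative, in R 4.3.3. Scripts were tested on simulated data. The exact permutation p cannot fall under 0.33 with 2 against 2, whatever the spread. The edgeR and DESeq2 p-values rest on a spread between these samples that is partly shared across genes. The SE of a log2 fold change was taken from the edgeR F statistic, so it is not the spread of that gene alone. The spread between samples may be technical where nothing says that replicates are separate mice.

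The labels carry a batch tag and an alternative one that gives C128 and C129 opposite values, and both were used only in alternatives. A suffix that is not explained follows the names of 15 cells (13 IDTILL, 2 MBULK). These cells were kept, and left out in an alternative. The 9 genes, the lists and the rules were chosen with earlier results of these data known. Named beside them were the 3 most abundant genes of each nuclear complex list, and the 5 genes most and 5 least like the mt- share. The rule would also name 3 genes of each other list, which are given here as counts only. Gene annotation and sequences are GENCODE M21 (GRCm38), not the authors' release.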

Additional observations from a re-analysis of the deposited data

How the results depend on the processing

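Depth limits the rarer genes most: 278 of 310 cells held at least 20000 reads and 286 at least 1000 mt- reads. None of the 9 genes was called under any of the 19 alternatives to the count test. The mt- share difference stayed below 0 in 14 of 15 alternatives (-9.77 to -5.39 points with 1 replicate left out) and was 2.11 points with RepI from C118 only. The complex I difference kept its sign in 14 of 14, which did not include leaving mt-Co3 out of the sum. With mt-Co3 left out, the complex I genes did not move together. mt-Nd1 was higher in 38w by 1.44 points, while mt-Nd2 (-0.573), mt-Nd4 (-0.71) and mt-Nd5 (-0.732) were lower with overlap. Taking RepI from C118 alone brought the mt-Nd1 difference to 0.231 points, with overlap. The count of 5 genes without overlap was 5 to 9 with 1 replicate left out. That leaves 1 replicate in a group, so overlap is rarer for any gene. Without RepM, 78.2% of the nuclear subunit genes and 86.6% of the ribosomal protein genes did not overlap, and without RepN 53.8% and 51.2%. The count was 1 with RepI from C118 only, 0 with the plate as unit and 1 with mt-Co3 left out. No share of other genes was computed for the plate as unit or for mt-Co3 left out. The number of genes called was 83 with DESeq2, 1 without a filter, 13 with the batch tag as a replicate block on 4 plates, 1 under the alternative-tag block, 0 on the same 4 plates with no block, and 0 to 1215 with 1 replicate left out (169 without RepI, 1215 without RepL), where the lone replicate is assumed to vary like the other group. The replicate letters are not shared between groups, so the block rests on the batch tags alone. The cause of the other changes was not tested.

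Among shares of mt- reads, 10 of 135 values changed sign (percentage points). For mt-Nd2 (-0.0885) it was 0.172 with reads summed over cells, 0.0395 in cells of at least 20000 reads and -0.473 to 0.296 with 1 replicate left out. For mt-Nd4 (0.39) it was -0.0806 to 0.861 with 1 replicate left out. For mt-Nd5 (0.117) it was -0.0638 with medians over cells, -0.0334 with the plate as unit, -0.0218 in cells of at least 1000 mt- reads and -0.251 to 0.484 with 1 replicate left out. For mt-Co1 (3.94) it was -1.18 with RepI from C118 only and -0.603 to 8.48 with 1 replicate left out.

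Among log2 fold changes, 22 of 171 for the 9 genes and 31 of 285 for the named nuclear genes changed sign. For mt-Nd1 (0.31) it was -0.076 to 0.67 with 1 replicate left out. For mt-Nd2 (-0.02) it was 0.059 with DESeq2 size factors, 0.059 with DESeq2, 0.59 with RepI from C118 only, 0.11 with the plate as unit and -1.12 to 0.62 with 1 replicate left out. For mt-Nd4 (0.12) it was -0.15 with equal weight per cell, -0.15 under the batch-tag block, -0.15 under the alternative-tag block and -0.55 to 0.62 with 1 replicate left out. For mt-Nd5 (-0.066) it was 0.015 with DESeq2 size factors, 0.015 with DESeq2, 0.56 with RepI from C118 only, 0.15 with the plate as unit and -0.76 to 0.43 with 1 replicate left out. For mt-Cytb (0.19) it was -0.065 to 0.52 with 1 replicate left out. For mt-Co1 (-0.36) it was 0.17 with RepI from C118 only. For mt-Co3 (-0.91) it was 0.22 with RepI from C118 only. For mt-Atp6 (0.22) it was -0.28 to 0.63 with 1 replicate left out. For Ndufv2 (0.22) it was -0.24 to 0.64 with 1 replicate left out. For Ndufa1 (-0.19) it was 0.78 with RepI from C118 only, 0.51 with the plate as unit and -0.70 to 0.37 with 1 replicate left out. For Sdha (0.017) it was -0.058 with RepI from C114 only, -0.059 under the batch-tag block, -0.059 under the alternative-tag block, -0.058 with those plates and no block, -0.011 in cells of at least 20000 reads and -0.11 to 0.21 with 1 replicate left out. For Sdhd (-0.24) it was 0.031 with equal weight per cell, 0.18 with RepI from C118 only, 0.028 with the plate as unit and -0.58 to 0.22 with 1 replicate left out. For Uqcrb (-0.21) it was 0.10 with equal weight per cell, 0.34 with RepI from C118 only and 0.14 with the plate as unit. For Uqcrh (2.50) it was -0.036 to 3.44 with 1 replicate left out. For Ndufa4 (-0.55) it was -1.28 to 0.012 with 1 replicate left out. For Cox7b (-0.15) it was 0.37 with RepI from C118 only and 0.16 with the plate as unit. For Atp5g3 (0.19) it was -0.12 to 0.61 with 1 replicate left out. For Atp5l (-0.14) it was 0.15 with equal weight per cell, 0.34 with RepI from C118 only, 0.26 with the plate as unit and -0.54 to 0.24 with 1 replicate left out.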
